A study of Mus musculus with 3 samples.

Results

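The values described here belong to 10 genes of the mouse, 5 plexins and 5 semaphorins, in RNA bound to ribosomes of cardiac endothelial cells. The plexins are Plxnd1, Plxna1, Plxna2, Plxnb1 and Plxnb2, and the semaphorins are Sema3c, Sema3f, Sema6a, Sema6d and Sema7a. They were taken by gene symbol from a deposited table of 17583 genes, and each of the 10 symbols was found on 1 row. The mouse has 9 plexin and 20 semaphorin genes in this table, and the 19 genes of both families outside these 10 are described beside them.

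The data came from the hearts of 3 EC-RiboTag mice, with genotype Cdh5-CreERT2;Rpl22tm1.1Psam, and the 3 libraries are biological replicates of a single group. In these animals a tamoxifen-inducible Cre under the control of the Cdh5 gene, which is active in blood and lymphatic vessels and in the endocardium, switches the ribosomal protein RPL22 to a form with a hemagglutinin tag. The mice were on a C57BL/6 background. Their sex and age are not stated for these hearts. The methods give a range of weeks for all animals and a narrower one for ligated mice, and neither is tied to these libraries. The labels place the hearts 7 days after coronary ligation, whereas the methods for this experiment mention no infarction, and the labels do not spell out the letters Rz of the sample titles. In another experiment on ligated hearts of this line the supplement uses RZ for the remote zone, so the tissue may be that zone alone. No input material and no control was analysed here, so all values are levels within the immunoprecipitate, and a higher level cannot be told apart from more cells that carry the RNA.

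Plexins are single-pass receptors whose intracellular part acts on small GTPases of the Ras and Rap families and, in the B class, on RhoA through guanine nucleotide exchange factors. Semaphorins are their ligands. Class 3 semaphorins are secreted and mostly need neuropilins as co-receptors, classes 4, 5 and 6 are transmembrane proteins, and Sema7a is held to the membrane by a glycolipid anchor. In the vessel wall the pair is known for guiding and restraining sprouts, with Plxnd1 as the plexin most associated with endothelial cells.

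The genes within a family are similar in protein but not in the letters a read must match. Among the 5 plexins the longest exact run shared by the canonical transcripts of any pair was 21 bases, in the coding parts of Plxnd1 and Plxnb1, well below the read length of 72 bases. The run is shown with the shorter part of it that Plxnb2 also holds, as the longest match among the 5 (GENCODE transcripts, GRCm39, bases 5003 to 5023 of the Plxnd1 transcript, all letters shared).
Plxnd1 and Plxnb1: ACCAACTGGATGTCCATCTGC
Plxnd1 and Plxnb2: CCAACTGGATGTCCATCTG
Plxna1 and Plxna2 shared at most 20 bases, and the members of the semaphorin group shared at most 20. In Plxnd1, Sema3c, Sema3f, Sema6a and Sema7a no window of 72 bases had an exact copy in an annotated transcript of another gene on either strand. Plxna1, Plxna2 and Plxnb2 had copies in 3.59%, 6.47% and 5.21% of their windows, all of them in transcripts of the opposite strand, which the strand-aware counting of the authors keeps apart. Plxnb1 and Sema6d had 13 and 12 windows with a copy in the same direction.

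The 250 bases before the start of the canonical transcript are shown for the plexin and the semaphorin with the highest level per length, and for the semaphorin member with the lowest, so that the promoters of strongly and weakly represented genes can be compared. Capitals mark GGGCGG on either strand, the GC box.
Plxnd1, minus strand, GRCm39 chr6:115972287-115972536: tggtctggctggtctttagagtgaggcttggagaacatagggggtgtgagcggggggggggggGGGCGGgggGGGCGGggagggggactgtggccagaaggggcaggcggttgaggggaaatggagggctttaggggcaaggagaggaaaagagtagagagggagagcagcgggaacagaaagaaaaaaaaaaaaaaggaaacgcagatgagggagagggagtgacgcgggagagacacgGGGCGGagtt
Sema7a, plus strand, GRCm39 chr9:57847125-57847374: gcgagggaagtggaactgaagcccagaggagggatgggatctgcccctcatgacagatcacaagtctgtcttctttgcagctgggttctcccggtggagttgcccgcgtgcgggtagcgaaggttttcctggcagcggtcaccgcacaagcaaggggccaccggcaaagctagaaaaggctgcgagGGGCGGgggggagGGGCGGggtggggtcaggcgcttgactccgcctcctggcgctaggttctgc
Sema3c, plus strand, GRCm39 chr5:17778969-17779218: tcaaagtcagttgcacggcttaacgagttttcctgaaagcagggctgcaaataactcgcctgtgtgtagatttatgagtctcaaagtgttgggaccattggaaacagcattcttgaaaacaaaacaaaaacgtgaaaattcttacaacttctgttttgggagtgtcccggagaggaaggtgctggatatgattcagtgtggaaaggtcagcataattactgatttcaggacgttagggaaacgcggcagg
The stretch of Plxnd1 held 3 GC boxes, that of Sema7a held 2, and that of Sema3c held 0. Across 14230 protein-coding genes of the table, 47.7% of stretches of this length held at least 1. CCGGAA, a core of ETS sites, was searched on both strands as well and was in none of these 3 windows, against 16.6% of all. The E-box palindrome CACGTG was in none of the 3 either, against 7.46% of all windows. Nor was the TATA box in its form TATAAA, which 7.55% held. The windows held 10, 15 and 8 CpG, and the median of all genes was 12. Sema3f, which was nearly as high as Sema7a, held 0 GC boxes and 2 CpG. Plxna1 and Plxnb1, the lowest of the 5 plexins per length, held 5 GC boxes each, and 27 and 31 CpG. Plxna2 held 2 GC boxes, Plxnb2 and Sema6d held 1 each, and Sema6a held 0. The fall from 3 to 2 to 0 thus did not follow level over all 10 members.

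Before the members, the libraries as a whole are characterized. The deposited values are normalized counts rounded to whole numbers. From the whole numbers that rounding skips or doubles, 1 read was worth between 0.961 and 1.06 normalized counts, which puts the depth at 6755000 to 7565000 reads. Mouse 3 stood apart in that its values were higher in long transcripts, which is described beside the spread between mice. Cdh5 had 2866 ± 61.2 normalized counts (SD, n = 3), and the median over the 12 endothelial markers was 2568 ± 108. RNA of other cell types was also in the precipitate, and per length the median cardiomyocyte marker was nearly as high as the median endothelial marker. The authors removed duplicate reads, which limits levels that are high per kilobase. Whether this brought the medians closer was not tested. The median normalized count per kilobase was 690 over the endothelial markers and 565 over the 10 cardiomyocyte markers, of which Myl2 with 819 and Tnnt2 with 769 lay above Cdh5 with 713. It was 107 over the 8 fibroblast markers, 47.1 over the 8 mural markers, 25.7 over the 8 leukocyte markers found and 3.16 over the 5 nerve markers. The lymphatic and endocardial lists, also endothelial, had 196 and 466 per kilobase, and no marker gene in the table was at 0 in all mice.

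Plxnd1 (ENSMUSG00000030123), the receptor of Sema3e and, together with neuropilins, of other class 3 semaphorins, was by far the highest plexin. The gene spans bases 115931772 to 115971966 of chromosome 6 (minus strand). Its normalized counts were 2646, 2723 and 3260 in mice 1, 2 and 3, a mean of 2876 ± 334 (SD, n = 3), and it ranked 45 of all 17583 genes. Mouse 3 was the highest and mice 1 and 2 lay close together. Per kilobase of the canonical transcript of 7227 bases, the level was 398 ± 46.3 normalized counts, and Plxnd1 made up 48.6% ± 2.24 of the summed level of all 9 plexins on this scale. Cdh5, the gene whose regulatory elements drive the Cre, was 1.80 times higher per kilobase.

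The other plexins followed at a distance. Plxna2 (ENSMUSG00000026640; chromosome 1, 194300526 to 194499177, plus strand), a receptor of class 6 semaphorins and part of class 3 receptor complexes, had 1229, 1212 and 1792 normalized counts in mice 1, 2 and 3, and so stood apart in mouse 3 while the other mice were nearly equal. Its level per kilobase was 127 ± 29.8. Plxnb2 (ENSMUSG00000036606; chromosome 15, 89039752 to 89064991, minus strand), a widely expressed receptor of Sema4c, had 529, 705 and 769, with mouse 1 the lowest, and 99.8 ± 18.6 per kilobase. Plxna1 (ENSMUSG00000030084; chromosome 6, 89293296 to 89339602, minus strand), the receptor of Sema6d in cardiac development, had 532, 688 and 923, a different value in every mouse. Plxnb1 (ENSMUSG00000053646; chromosome 9, 108924457 to 108948985, plus strand), the receptor of Sema4d, had 488, 568 and 407 and was the only one of the 5 with its lowest value in mouse 3. Plxna1 and Plxnb1 had 51.9 ± 14.3 and 48.3 ± 7.98 per kilobase.

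**Figure D1:**
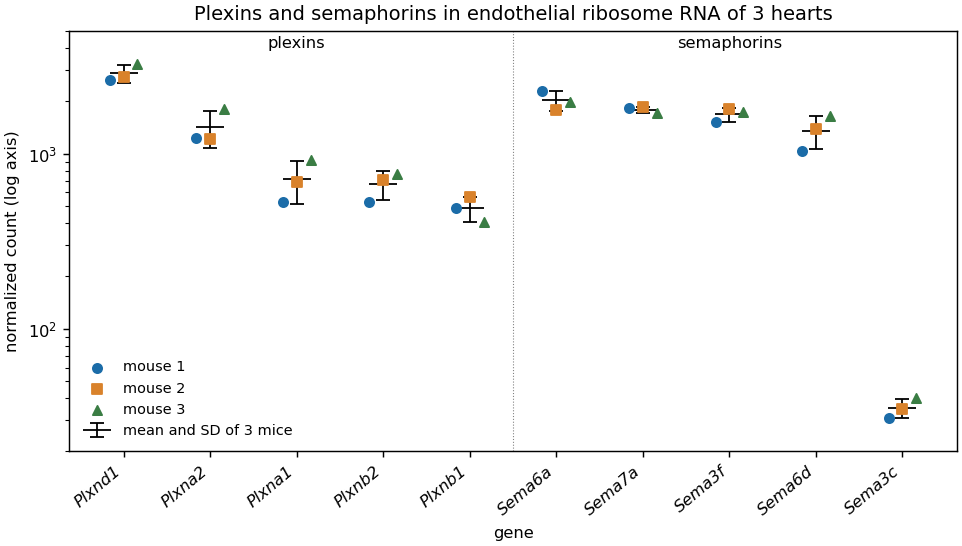
Normalized count (log axis) of the 5 plexins and 5 semaphorins in each of the 3 mice, with points for mice 1, 2 and 3 and a black bar for the mean with its SD (n = 3). Plxnd1 lies between 2646 and 3260, 4 of the 5 semaphorins lie between 1041 and 2288, and Sema3c lies between 31 and 40.

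Each pair of plexins was compared by the log2 ratio of their levels per kilobase within a mouse. Plxnd1 exceeded each of the other 4 in all 3 mice, by 3.16-fold over Plxna2, 4.02-fold over Plxnb2, 7.83-fold over Plxna1 and 8.28-fold over Plxnb1. The log2 ratio to Plxna2 was 1.66 ± 0.16 (SD, n = 3; exact sign-flip permutation test, two-sided p = 0.25, 0.278 after Benjamini-Hochberg adjustment over 20 pairs). With 3 mice this test cannot give a p below 0.25, so no pair could pass 0.05. Of the 10 plexin pairs, 9 kept 1 direction in all mice and had this smallest p. The exception was Plxna1 and Plxnb1, whose log2 ratio was -0.32, -0.17 and 0.73 in mice 1, 2 and 3. By canonical length, their order thus depended on the mouse. Without division by length Plxna1 was higher in every mouse. The mean log2 ratio was then 0.53, and 0.69 by coding length, against 0.080 by canonical length. The lengths of both genes are uncertain. The annotation used for lengths ends beyond the gene end in the deposited table, by 4707 bases for Plxna1 and 1442 for Plxnb1. By coding length instead, Plxna1 and Plxnb2 were level, with a log2 ratio of Plxnb2 to Plxna1 of -0.039, against 0.96 by the canonical transcript.

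Of the 4 plexin genes outside the 10, Plxna4, a receptor of class 3 and class 6 semaphorins known from axon guidance, had the highest level, 70.1 ± 13.1 per kilobase, which placed it between Plxnb2 and Plxna1. Its normalized counts were 766, 860 and 1094. Plxnc1, the receptor of Sema7a, had 95, 119 and 332, a value in mouse 3 that was far above both others. Plxna3 and Plxnb3, which are known mainly from the nervous system, had 12, 15 and 18 and 7, 8 and 8 normalized counts. In the order of the 9 plexins per kilobase, 2 of the 8 neighbouring pairs lay within the larger of their SDs, namely Plxna2 with Plxnb2, and Plxna1 with Plxnb1. Plxnc1 lay below Plxnb1 by its mean but above it in mouse 3.

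**Figure D2:**
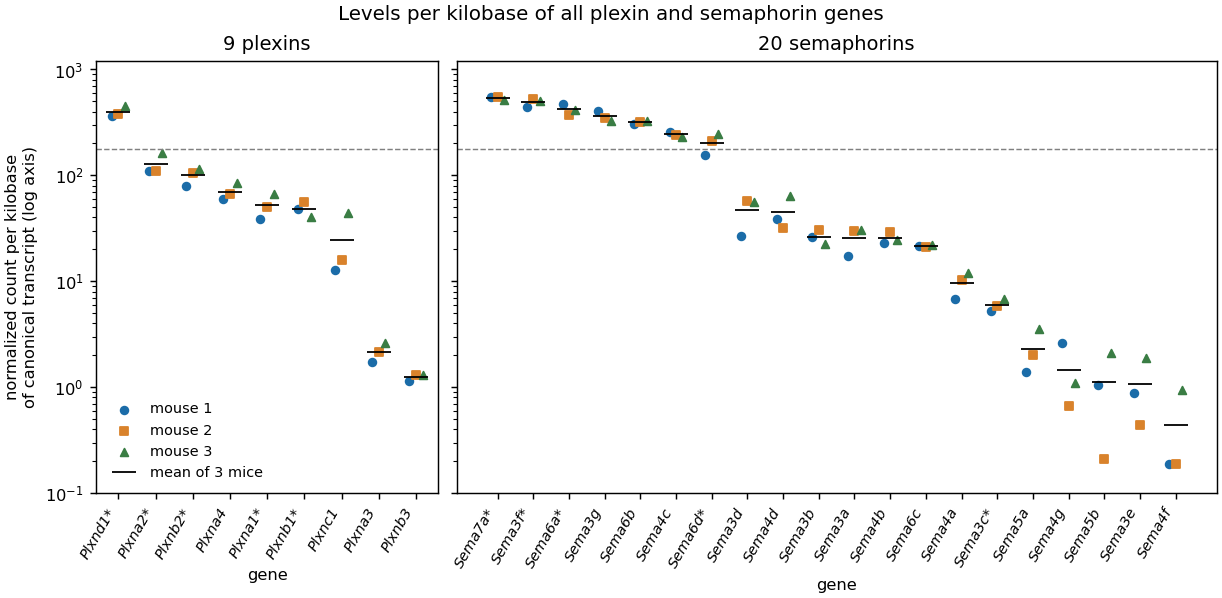
Normalized count per kilobase of canonical transcript (log axis) for all 9 plexin and 20 semaphorin genes, ordered by the mean of 3 mice (black bar), with a point per mouse and the 10 member genes marked by an asterisk. The dashed line is the median of 176 of all genes with a mean count of at least 200. By their means, Plxnd1 and 7 semaphorins lie above it, and from the seventh to the eighth semaphorin, Sema6d to Sema3d, the mean falls from 204 to 46.7.

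Sema7a, Sema3f and Sema6a were the highest semaphorins per kilobase. Sema7a (ENSMUSG00000038264; chromosome 9, 57847395 to 57870148, plus strand), the glycolipid-anchored semaphorin that binds Plxnc1 and beta-1 integrins, had 1811, 1835 and 1700 normalized counts in mice 1, 2 and 3, or 537 ± 21.7 per kilobase. The 3 mice were nearly equal, and the coefficient of variation, the SD over the mean, was 4.04%. Sema3f (ENSMUSG00000034684; chromosome 9, 107558699 to 107587674, minus strand), a secreted ligand that acts through Nrp2 and restrains sprouting, had 1507, 1803 and 1724, with mouse 1 the lowest, and 494 ± 45.1 per kilobase. Sema6a (ENSMUSG00000019647), a transmembrane ligand of Plxna2 and Plxna4, had 2288, 1777 and 1984, the only member with its highest value in mouse 1, and 419 ± 53.4 per kilobase. Sema7a exceeded Sema3f by only 1.09-fold, less than the larger of their SDs, although it was higher in 3 of 3 mice (exact sign-flip permutation test, two-sided p = 0.25, adjusted 0.278). Sema3f and Sema6a changed order in mouse 1 (exact sign-flip permutation test, two-sided p = 0.5, adjusted 0.526).

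Sema6d (ENSMUSG00000027200; chromosome 2, 123931889 to 124509690, plus strand), the transmembrane ligand of Plxna1 known from heart morphogenesis, was intermediate. Its normalized counts were 1041, 1385 and 1630, spread over a 1.57-fold range with mouse 1 the lowest, and its level was 204 ± 44.6 per kilobase. Sema7a exceeded it by 2.68-fold, Sema3f by 2.46-fold and Sema6a by 2.08-fold, each in 3 of 3 mice.

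Sema3c (ENSMUSG00000028780; chromosome 5, 17779279 to 17935266, plus strand), a secreted ligand known from the development of the cardiac outflow tract, was the lowest of the 10 by far. It had 31, 35 and 40 normalized counts, which ranked it 12440 of all genes. These values rest on about 32, 33 and 42 reads, and their exact 95% Poisson intervals, which cover counting error only, run from 21.4 to 44.1, from 24.1 to 49.1 and from 29.1 to 54.5 normalized counts. The 3 intervals overlap, so a difference between mice was not detectable at this depth. Per kilobase Sema3c had 5.96 ± 0.76, and Sema7a exceeded it by 90.6-fold and Sema6d by 33.9-fold. Of the 10 semaphorin pairs, 9 kept their direction in all mice.

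Of the semaphorins outside the 10, 3 lay between Sema6a and Sema6d by their means. Sema3g, a secreted class 3 ligand known from arterial endothelium, had 1836, 1598 and 1496 normalized counts, or 361 ± 38.4 per kilobase, and was below Sema6a in 3 of 3 mice. Sema6b had 317 ± 9.55 and Sema4c, the ligand of Plxnb2, 243 ± 13.8 per kilobase, so both lay above Sema6d by their means, Sema4c by less than the larger SD. Sema3d and Sema4d, the ligand of Plxnb1, had 46.7 ± 17.3 and 45.0 ± 17.1. At the lower end, 4 semaphorins had a mean under 10 normalized counts, namely Sema3e, Sema4f, Sema4g and Sema5b. Of the 15 semaphorin genes outside the 10, 5 had a mean of at least 200, and the remaining Sema3a, Sema3b, Sema4a, Sema4b, Sema5a and Sema6c had means between 25 (Sema5a) and 193 (Sema3a). In the order of all 20 per kilobase, 9 of the 19 neighbouring pairs lay within the larger of their SDs.

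By class, the secreted class 3 and the transmembrane class 6 took equal parts of the summed semaphorin level per kilobase, 34.5% ± 1.39 and 34.5% ± 1.48 (SD, n = 3). Sema7a alone made up 19.3% ± 0.91, class 4 made up 11.7% ± 0.41, and class 5 0.12% ± 0.066. Except in class 5, with 0.088%, 0.080% and 0.20% in mice 1, 2 and 3, these shares moved little between mice. Class 3 had 33.4%, 36.0% and 33.9% in mice 1, 2 and 3, and class 6 had 34.8%, 32.9% and 35.8%. The summed level of all semaphorins was 2789 ± 25.2 per kilobase and that of all plexins 823 ± 130, of which mouse 3 had the most with 968, against 718 and 784 in mice 1 and 2. The median of the 5 plexin members lay below that of the 5 semaphorin members by a log2 difference of -2.05 ± 0.38. The sign turned when all 9 plexins and all 20 semaphorins were taken, of which 6 and 9 had a mean of at least 200.

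Known ligands and receptors were set beside each other per kilobase. Sema3e, the direct ligand of Plxnd1, had 6, 3 and 13 normalized counts, against the high level of its receptor. Sema3f was close to its co-receptor Nrp2, which was 1.17 times higher per kilobase. Sema6a was 3.33 times Plxna2 and 6.02 times Plxna4. Sema6d was 3.96 times Plxna1 with little spread, at log2 ratios of 2.02, 2.06 and 1.87. The size of this ratio rests on the uncertain length of Plxna1. Undivided, the mean normalized counts of Sema6d and Plxna1 were 1352 and 714. Sema4c was 2.46 times Plxnb2. Sema7a was 25.8 times Plxnc1 on average, a ratio that fell in mouse 3, where Plxnc1 was highest, but only 1.11 times Itgb1, the integrin chain it can also bind. Sema4d and Plxnb1 were about level on average and changed order in mouse 3. These are ratios of RNA and carry no test. Sema3f, Nrp2, Sema7a and Itgb1 are all high per kilobase, where removal of duplicates limits the level. Whether this brought their ratios closer to equality was not tested.

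The partners of both families were counted by the mean of 200 normalized counts, which 53.2% of all genes in the table reached. Of the 14 genes listed as co-receptors and other semaphorin receptors, 7 reached it, close to that share. Nrp2 with 577 ± 33.9, Kdr with 554 ± 13.5 and Itgb1 with 486 ± 19.5 were the highest per kilobase. Havcr2 and the adhesion molecule Chl1 had means under 10 normalized counts. Of the 28 plexin effectors, 25 reached it. The small GTPases Arf6 and Rap1b, with 591 ± 20.3 and 574 ± 39.0 per kilobase, and Gipc1, an adaptor of neuropilin and Plxnd1, with 450 ± 5.30, were the highest. Rhoa was at 449 ± 22.7, and Rras, a substrate of the plexin GTPase-activating domain, at 324 ± 12.2. All 4 convertases, which cleave class 3 semaphorins, reached it, led by Furin with 379 ± 15.6, then Pcsk7 and Pcsk6 with 202 ± 7.95 and 164 ± 16.4.

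Against all genes, the 10 members were not a uniformly high group. Among 9356 genes whose mean reached 200 and whose length was known, the highest 10% per kilobase (9.99% of genes) began at 428, and 2 of the 10 members, Sema7a at rank 433 and Sema3f at rank 573, were in it. Sema6a at rank 995 and Plxnd1 at rank 1170 lay just outside. These ranks depended on the length used, and Plxnd1 ranked 270 by the length of all annotated exons joined and 3986 by coding length. By coding length Sema7a ranked 1760, Sema3f 2428 and Sema6a 2660. By the length of all annotated exons joined, they ranked 56, 521 and 1261. By canonical length, Sema6d ranked 3994, Plxna2 6176 and Plxnb2 7165, while Plxna1 and Plxnb1 ranked 8839 and 8924, near the end. Sema3c was under the mean of 200 and was not ranked. The number of members in the highest 10% was 5 without division by length, 3 by the length of all annotated exons joined and 0 by coding length, a count added once the data had been seen.

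Among the 9 members whose mean reached 200, 3 had a coefficient of variation between mice over 20%, against 8.00% of 9358 genes. They were Plxna1 with 27.6%, Plxna2 with 23.4% and Sema6d with 21.9%. Plxnb2 with 18.6% and Plxnb1 with 16.5% were just below. Counting error alone accounts for an SD of 2.66% to 3.74% of the mean in the 3 that passed, so counting is the smaller part of their spread. Sema7a, at 4.04%, was below the median of all genes, 7.37%. Without mouse 3 the members over 20% were Plxnb2 and Sema6d (8.71% of all genes), without mouse 2 Plxna1, Plxna2, Plxnb2 and Sema6d (9.86%), and without mouse 1 Plxna1, Plxna2 and Plxnb1 (4.84%).

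Mouse 3 had the highest value of 5 of these 9 members, against 29.7% of genes with such a mean. Relative to the mean of mice 1 and 2, the log2 ratio of mouse 3 was 0.60 in Plxna1, 0.55 in Plxna2, 0.43 in Sema6d, 0.32 in Plxnb2 and 0.28 in Plxnd1, and -0.38 in Plxnb1. The median of all genes was -0.02, and the 5th and 95th percentiles were -0.24 and 0.37. The same library was higher in long transcripts in general. In 10 classes of canonical length, the median log2 ratio of mouse 3 rose at each step from -0.13 in the shortest transcripts to 0.15 in the longest, the class of Plxna1, Plxna2 and Plxnb1. After values were centred within these classes, a step added after seeing the data, Plxna1 had a coefficient of variation of 21.0%, Plxna2 16.8%, Sema6d 19.3% and Plxnb1 20.7%, and 2 members were over 20%, against 7.35% of all genes. The log2 ratios of mouse 3 then were 0.45 in Plxna1, 0.40 in Plxna2 and 0.34 in Sema6d. Centring took 1 median per class, so any trend with length inside a class was not removed. The longest class ran from 7433 to 123193 bases with a median of 8917. Plxna1 with 13758 and Plxna2 with 11074 bases were longer than that median. Classes of GC content showed no rise like that over length, with medians between -0.03 and -0.01.

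**Figure D3:**
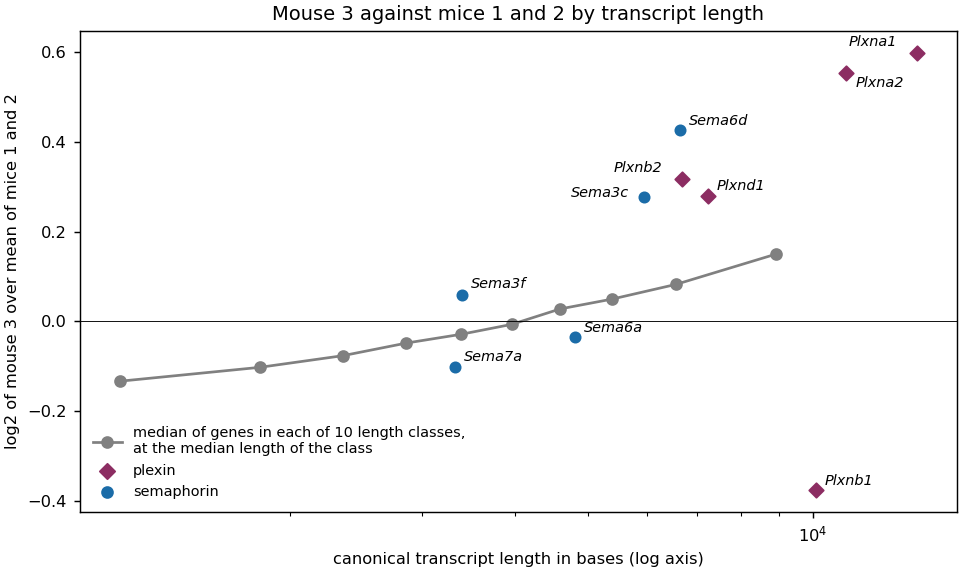
Log2 ratio of mouse 3 to the mean of mice 1 and 2 against the length of the canonical transcript (log axis) for the 10 genes (diamonds, plexins; circles, semaphorins), with the median of all genes with a mean of at least 200 in 10 length classes as a grey line. The line rises from -0.13 to 0.15 and ends at 8917 bases, short of Plxna1, Plxna2 and Plxnb1. Plxna1, Plxna2 and Sema6d lie above the median of their length class by more than any other member. Plxnb1 at -0.38 lies below that of its class.

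Markers of other cells also differed between these libraries. The 10 cardiomyocyte markers summed to 19615, 20838 and 23724 normalized counts in mice 1, 2 and 3, while their median ran the other way with 904, 865 and 822, and 3 of 10 were highest in mouse 3. The summed normalized counts of the 8 fibroblast markers were 3047, 3970 and 4186 in mice 1, 2 and 3, with 4 of 8 genes highest in mouse 3, and those of the 8 mural markers were 1610, 2002 and 2274, with 5 of 8 highest in mouse 3. The leukocyte markers summed to 582, 769 and 789, with 4 of 8 highest in mouse 3. The lymphatic markers summed to 2834, 3523 and 3989, with 2 of 5 highest in mouse 3. The endocardial markers summed to 3449, 2724 and 4500, with 3 of 3 highest in mouse 3. The 12 endothelial markers summed to 29659, 28513 and 29751. Plxnd1, Plxna1, Plxnb2, Sema6d and Sema3c ran in the same order of mice as the cardiomyocyte, fibroblast, mural, leukocyte and lymphatic sums. Not every marker of these lists ran in that order. The share of all genes in that order was not counted, so this order sets the members apart from no other genes. Within the cardiomyocyte sum, Ttn alone had 7379, 7743 and 10190. The part of any of these cells in the differences between mice was not tested.

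The genes closest to Plxnd1 in level across the 3 mice, by Euclidean distance of log2 normalized counts among genes with a mean of at least 200, were Prrc2a at 0.057, Fzd4 at 0.14 and Pde4dip at 0.14. For Sema7a they were Tlnrd1 at 0.033, Mybpc3 at 0.035 and Etnk1 at 0.041. With 3 samples such distances describe a like level and little else, and Mybpc3 is a cardiomyocyte gene.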

How the data were processed

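Per the labels and the methods, the authors trimmed single-end reads of 72 bases with Trimmomatic 0.39, aligned them to mm39 (GRCm39, Ensembl) with STAR 2.7.11a, removed duplicates (Picard 3.1.1) and multi-mapping, ribosomal and mitochondrial reads, counted reads on exons of the correct strand with featureCounts 2.0.4, leaving out reads over several genes, and normalized with DESeq2 1.36.0. The deposited values are a score in that read counts were divided by a size factor and rounded to whole numbers, so they are not raw counts and no count model was used. Removal of duplicates limits how far the level per length of an abundant transcript, short or long, can rise. Ratios, shares, ranks and differences between mice of genes high per kilobase may therefore be compressed, and the extent was not tested.

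Members and lists were chosen with earlier results of these data known. Levels are means and SDs of the deposited values over 3 mice. Lengths are those of the Ensembl canonical transcript in GENCODE vM39, which holds 17475 of the 17583 genes. This annotation is newer than the one used for counting. Pairs were tested by flipping the signs of their log2 ratios over all combinations, a two-sided exact permutation test. Named genes are the 10 members, every other plexin and semaphorin, of each partner list the 3 highest per kilobase and those under a mean of 10, and the 3 genes closest in level to the highest plexin and semaphorin. Rras and Rhoa fall outside this rule and were added after their values were seen, as were the ligand and receptor ratios. Coding length was taken from the canonical transcript's annotated coding parts. Alternatives were other scalings, lengths, minimum means, a pseudocount of 1 and leaving out each mouse. Python 3.11.15, numpy 2.4.6, pandas 2.3.3, scipy 1.17.1 and matplotlib 3.10.9 were used.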

Additional observations from a re-analysis of the deposited data

How the results depend on the processing

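Of the 20 pairs, 18 kept 1 direction in every mouse by canonical length, and 16 to 19 did under the other settings. Signs turned for Plxna2 over Plxnb2 by exonic length (log2 ratio -0.0011), for Plxnb2 over Plxna1 by coding length (-0.039) and without division by length (-0.079), and without division by length also for Sema7a over Sema6a (-0.17) and Sema3f over Sema6a (-0.26). With a mouse left out, Plxna1 over Plxnb1 ran from -0.25 to 0.28, the lowest without mouse 3. Members in the highest 10% per kilobase numbered 5 without division by length, 4 when genes down to a mean of 10 were ranked and 0 by coding length, a setting chosen after seeing the data, against 2. The log2 difference between the medians of 5 plexins and 5 semaphorins, -2.05, was -1.48 by exonic length, -1.24 without division by length and 1.05 over all 9 and 20 genes. The number of members with a coefficient of variation over 20% was between 2 and 4 throughout. Scaling to equal totals or by trimmed means moved no rank per kilobase by more than the spread between mice, whereas exonic and coding length each moved 6 of 9 ranks by more. Depth limits Sema3c and the genes under a mean of 10. The cause of these shifts was not tested.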
